A study of Mus musculus with 3 samples.

Results

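The genes described here are 9 genes of retinoid metabolism and binding, Adh1, Adh7, Aldh1a1, Aldh1a2, Aldh1a3, Crabp1, Crabp2, Cyp26b1 and Dhrs9, taken by symbol from 49452 gene rows. All 9 had a row. Of these, 5 (Adh1, Adh7, Crabp2, Cyp26b1 and Dhrs9) reached a mean level of 1 over the libraries, the minimum used for ratios, as did 11575 genes in all. They were measured by RNA sequencing in 3 populations of cells. All 3 were sorted from epidermis of the back of wild-type mice of the strain C57BL/6, at 7 weeks of age and in second telogen, a resting phase of the hair cycle. S was the suprabasal bulge stem cells (CD34-positive, low Itga6), B the basal bulge stem cells (CD34-positive, high Itga6) and N the non-stem cells, sorted only as CD34-negative. The bulge, below the sebaceous gland, is where the hair follicle keeps its stem cells. Each library was made from RNA pooled from 4 mice and each group is 1 library, so no difference between groups has a replicate error and no test was possible.

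Retinol (vitamin A) is oxidised in 2 steps to retinoic acid, a ligand of nuclear receptors. Alcohol dehydrogenases (Adh1, Adh7) and short-chain dehydrogenases such as Dhrs9 can carry out the step to retinaldehyde, and the aldehyde dehydrogenases Aldh1a1, Aldh1a2 and Aldh1a3 the step to retinoic acid. Crabp1 and Crabp2 bind retinoic acid in the cytoplasm, and the cytochrome P450 enzyme Cyp26b1 hydroxylates it and so clears it. In skin, retinoids are known for their effects on keratinocyte differentiation, sebaceous glands and the hair cycle.

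Levels are FPKM (fragments counted for a transcript, adjusted for its length in kilobases and for the mapped fragments of the library) divided by a scaling factor per library, called scaled FPKM. Ratios between libraries are given as log2 of scaled FPKM + 1, which understates differences of low genes, and a gene is called where this ratio reaches 1 or more on the higher side or -1 or less on the lower side. The steps between low values correspond to 31.3 M fragments for S, 32.7 M for B and 35.4 M for N. The number of fragments behind a level was estimated from this depth and the longest annotated transcript, and 95% intervals (exact Poisson for levels, exact binomial for fold differences) cover counting error only. The library of S stood apart, because the mitochondrial tRNA gene mt-Tl1 had a deposited FPKM of 1686680 there and was listed at 0 in B and N. Mitochondrially encoded genes held 83.5% of the summed FPKM in S, 36.2% in B and 31.4% in N. The share in S includes mt-Tl1. Because FPKM is adjusted for length, a share of summed FPKM is not a share of fragments. The sort was visible in Cd34 (215 scaled FPKM in S, 144 in B and 0.201 in N). Itga6 was at 33.1 in S and 49.3 in B, the order of the gates, and at 115 in N.

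The retinoid genes did not share 1 pattern over the populations. The alcohol dehydrogenase genes Adh7 and Adh1 were lowest in S. The retinoic acid hydroxylase gene Cyp26b1 was high in both bulge libraries and Dhrs9 was high in S. The Aldh1a genes were low everywhere, with Aldh1a1 highest in N, and Crabp1 and Aldh1a2 rested on the fewest fragments.

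**Figure D1:**
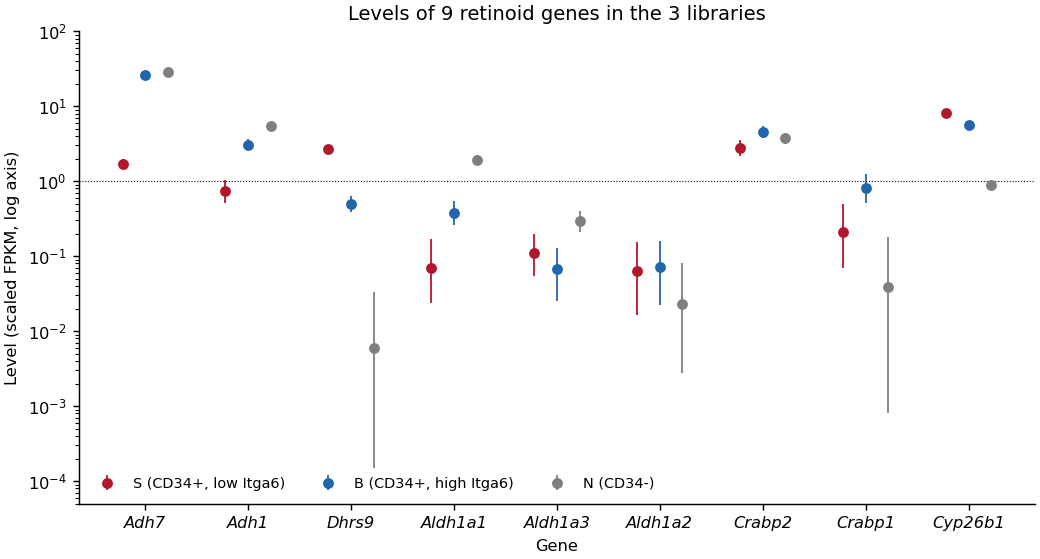
Level of each of the 9 genes in scaled FPKM on a log axis, with 1 point per library (S red, B blue, N grey) and the 95% counting interval as a line; the dotted line marks a level of 1. Adh7 and Adh1 lie lowest in S, Cyp26b1 lies lowest in N, and Dhrs9 spans 2.68 in S to 0.00594 in N.

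Adh7, the class IV alcohol dehydrogenase of epithelia, was the most abundant of the 9 genes. Its level was 1.69 scaled FPKM in S, 26.4 in B and 28.4 in N, from about 168, 2904 and 3816 fragments. B and N were thus close and S was far below both. The level in S was 0.0640 of that in B (95% counting interval 0.0546 to 0.0751) and 0.0594 of that in N (0.0507 to 0.0695). On the log2 scale the ratio was -3.35 for S over B and -3.45 for S over N. Of the 11575 genes, 0.639% had a log2 ratio of S over B at or below that of Adh7. B over N was -0.11, and this sign turned with 2 of the scalings tried. The gene lies on chromosome 3 (138217760 to 138233382, mm10, plus strand, ENSMUSG00000055301).

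Adh1, the class I alcohol dehydrogenase, was also lowest in S, at a lower level throughout. It was at 0.747 scaled FPKM in S (about 32 fragments), 3.08 in B (147) and 5.49 in N (320). The counting intervals of the 3 libraries did not overlap, at 0.508 to 1.05, 2.59 to 3.61 and 4.90 to 6.12. The log2 ratio was -1.22 for S over B, -1.89 for S over N and -0.67 for B over N. With a pseudocount of 5 the first 2 ratios shrank to -0.49 and -0.87, which ends both calls. Adh1 is at chromosome 3, 138260991 to 138290698 (plus strand, ENSMUSG00000074207).

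Both genes overlap an antisense gene, 0610031O16Rik for Adh7 and Gm16559 for Adh1. The use of strand is not given in the sources used here, so reads of the partners cannot be told apart. The antisense gene of Adh7 was at a deposited FPKM of 0 in S, 0.372 in B and 0.566 in N, so it too was lowest in S. That of Adh1 was at most 0.021.

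Adh7 and Adh1 are neighbours in a cluster of alcohol dehydrogenase genes, so the other members of the cluster were set beside them. The cluster was looked at after the values of Adh7 and Adh1 were seen. Adh5, the class III enzyme that acts on glutathione-bound formaldehyde, lies 225 kb from Adh7. It was at 9.75 scaled FPKM in S, 14.1 in B and 13.4 in N, with a log2 ratio of S over B of -0.49. Adh6b was at 0.122 in S, 0.993 in B and 0.892 in N, and Adh6a at 0.121, 0.865 and 0.0831. Adh4 was at 0.029 in S and listed at 0 in B and N. Low S was therefore seen in Adh7, Adh1 and the low gene Adh6b, while Adh5 was not called and Adh6a was low in both S and N.

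**Figure D2:**
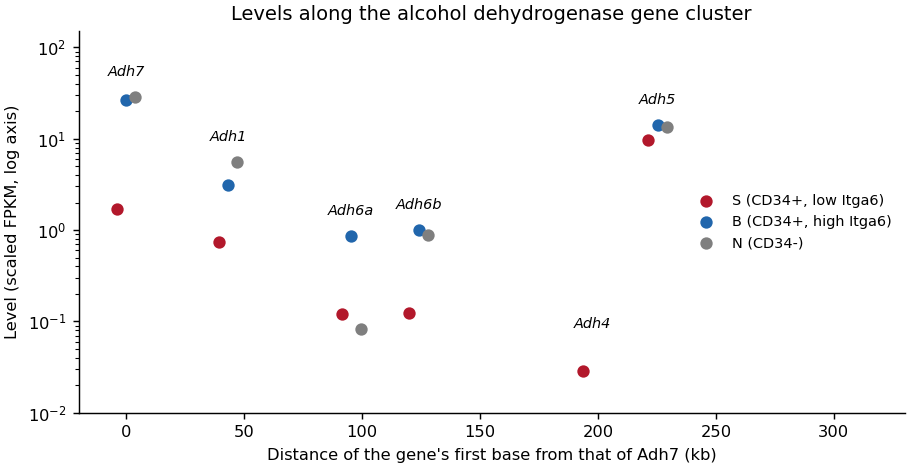
Level in scaled FPKM (log axis) of each gene of the Adh cluster against the distance of its first base from that of Adh7 in kb, with 1 point per library (S red, B blue, N grey; points are moved sideways by 4 kb for sight, and values of 0 are not drawn). Adh7 and Adh1 lie apart in S, at 1.69 and 0.747, whereas the 3 points of Adh5 lie between 9.75 and 14.1.

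The promoters of Adh7 and Adh1 are shown because both genes were lowest in S and lie next to each other. They run from 250 bases before to 50 bases after the start site in the RefSeq table (GRCm38.p6), at chr3:138217523-138217822 and chr3:138277335-138277634, both on the plus strand. The RefSeq start site of Adh1 lies inside the deposited span of the gene. Capitals mark exact matches, on either strand, to AGGTCA or GGGTCA or AGTTCA or GGTTCA (4 forms of the half-site bound by retinoic acid receptors), to TATAAA, to CCAAT or to GGGCGG.
Adh7: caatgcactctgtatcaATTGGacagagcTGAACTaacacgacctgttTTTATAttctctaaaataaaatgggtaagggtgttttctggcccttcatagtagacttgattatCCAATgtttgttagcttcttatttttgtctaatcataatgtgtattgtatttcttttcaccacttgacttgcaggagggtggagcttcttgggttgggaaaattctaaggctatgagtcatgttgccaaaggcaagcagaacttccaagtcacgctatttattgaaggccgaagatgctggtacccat
Adh1: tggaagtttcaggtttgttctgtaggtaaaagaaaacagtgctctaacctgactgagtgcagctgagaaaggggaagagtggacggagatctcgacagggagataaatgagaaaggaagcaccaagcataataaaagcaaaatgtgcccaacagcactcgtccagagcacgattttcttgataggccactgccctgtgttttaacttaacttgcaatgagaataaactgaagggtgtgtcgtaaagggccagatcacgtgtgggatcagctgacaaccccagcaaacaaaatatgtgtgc
Adh7 had 1 match to AGTTCA, 1 to TATAAA and 2 to CCAAT. Adh1 had no match, which says only that these letters are not in this window. At least 1 of the 4 half-site forms was present in 43.7% of the 32851 promoters of this length, TATAAA in 13.6%, CCAAT in 37.4% and GGGCGG in 35.7%.

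Over the 3 libraries, the genes whose pair of log2 ratios (S over N and B over N) lay closest to that of Adh7 were Rnase4, Ackr4 and Lgals9, among 3044 protein-coding genes with a mean of at least 10. Rnase4, a secreted ribonuclease gene, lay at a distance of 0.226 log2 units and was at 6.52 in S, 73.1 in B and 71.6 in N. Ackr4, an atypical chemokine receptor gene, lay at 0.547 and Lgals9, which encodes galectin-9, at 0.622. No other member had the mean of 5 set for this comparison.

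Markers of epidermal cells outside the bulge were set beside these 2 genes, and their summed levels were lowest in S and highest in N, though single markers went in both directions. The summed level of the 8 upper follicle markers was 103 scaled FPKM in S, 172 in B and 649 in N. Of 7 with a mean of at least 1, 1 was called higher and 4 lower in S than in B, and 0 higher and 5 lower in S than in N. Defb6, a defensin gene and the most abundant, was at 9.37, 60.3 and 326, whereas Gata6 was at 3.78, 0.965 and 2.45. The 6 interfollicular basal markers summed to 1024 in S, 1400.0 in B and 2061 in N, and 4 were called lower in S in both comparisons with it. Krt5, the most abundant, was not among the 4, at 959, 810 and 818. The 8 markers of differentiating epidermis summed to 1028 in S, 1737 in B and 3595 in N, a sum carried by Krtdap at 337, 1134 and 2868. Of 7 with a mean of at least 1, 1 was called higher and 3 lower in S than in B, and 2 higher and 3 lower in S than in N, with a median log2 ratio of 0.05 for S over B. Among them Sbsn ran the other way, at 460 in S, 122 in B and 84.9 in N. No marker of these 3 lists was listed at 0 in any library.

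Markers of other cells were as uneven. The 8 T and NK cell markers summed to 2.103 in S, 6.38 in B and 20.1 in N, of which Thy1 alone reached the minimum mean, at 0.673, 4.99 and 18.3. Cd3d and Cd8a were listed at 0 in S. The 10 markers of Langerhans, dendritic and myeloid cells summed to 74.6 in S, 35.4 in B and 59.3 in N. Epcam alone was 55.9, 21.7 and 24.6 of these sums. Of 5 measured, 2 were called higher (Epcam and Cd68) and 2 lower (H2-Aa and H2-Ab1) in S than in N. Of that list Cd207, which defines Langerhans cells, was at most 0.343, and Itgax was listed at 0 in S and B. The 8 sebaceous gland markers summed to 60.3 in S, 53.7 in B and 61.5 in N. Of 5 measured, 1 was called higher (Mgst1) and 3 lower (Scd1 and Fasn among them) in S than in N, and 0 were called in S over B. Whether such cells account for part of the Adh1 and Adh7 levels was not tested, and in bulk RNA fewer cells of a type and less RNA per cell cannot be told apart.

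Cyp26b1, the enzyme gene of retinoic acid clearance, had the highest level of the 9 genes in S. It was at 8.04 scaled FPKM in S (95% counting interval 7.56 to 8.54), 5.61 in B (5.23 to 6.01) and 0.892 in N (0.759 to 1.04). Both bulge libraries were thus well above N. The fold difference was 9.01 (7.60 to 10.7) for S over N and 6.29 (5.29 to 7.50) for B over N. The log2 ratios were 2.26 and 1.81, and 2.32% and 3.01% of all genes had ratios as high or higher. S and B differed less, with a fold of 1.43 (1.31 to 1.57) and a log2 ratio of 0.45, which is not called. With a pseudocount of 5 the ratio of B over N was 0.85, below the call. Cyp26b1 is at chromosome 6, 84571414 to 84593908 (minus strand, ENSMUSG00000063415).

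The other genes of this enzyme family, Cyp26a1 and Cyp26c1, were listed at 0 in all 3 libraries. Cyp1b1, a P450 gene that can also act on retinoids, was at 4.94 in S, 3.91 in B and 1.59 in N, and its log2 ratio of S over N was 1.20.

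Dhrs9, a short-chain dehydrogenase gene known to act on retinol and on steroids, was the member with the widest range. It was at 2.68 scaled FPKM in S (about 332 fragments), 0.493 in B (68) and 0.00594 in N (1 fragment). The order was S, then B, then N, with no overlap of the counting intervals. S was 5.44-fold above B (4.16 to 7.14). The fold of S over N was 451, with a counting interval of 80.05 to 17791 that shows how little 1 fragment can fix. The log2 ratios with the pseudocount were 1.30 for S over B, 1.87 for S over N and 0.57 for B over N. The mean of Dhrs9 was 1.06, so it passed the minimum through S alone, and a gene that passes in this way has to differ between the libraries. With unscaled values, or scaled by the upper quartile, it stayed below the minimum, and with a pseudocount of 5 its ratios for S fell short of the call. Dhrs9 is at chromosome 2, 69380445 to 69404533 (plus strand, ENSMUSG00000027068).

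The promoters of Cyp26b1 (chr6:84593761-84594060, minus strand) and Dhrs9 (chr2:69380212-69380511, plus strand) are shown because the 2 genes share the order of S above B above N. Both are from the same table (GRCm38.p6) and are marked in the same way, 5′ to 3′ on the strand of the gene.
Cyp26b1: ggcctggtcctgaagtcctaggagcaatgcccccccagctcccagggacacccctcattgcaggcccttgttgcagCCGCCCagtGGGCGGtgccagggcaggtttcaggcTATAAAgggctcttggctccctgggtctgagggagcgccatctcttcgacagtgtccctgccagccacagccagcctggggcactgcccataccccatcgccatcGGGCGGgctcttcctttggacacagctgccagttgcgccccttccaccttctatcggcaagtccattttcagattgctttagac
Dhrs9: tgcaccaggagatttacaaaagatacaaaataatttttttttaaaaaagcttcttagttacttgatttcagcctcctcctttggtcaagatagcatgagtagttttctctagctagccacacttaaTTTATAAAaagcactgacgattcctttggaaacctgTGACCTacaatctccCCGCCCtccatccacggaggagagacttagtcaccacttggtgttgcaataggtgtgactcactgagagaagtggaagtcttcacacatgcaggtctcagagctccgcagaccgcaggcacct
Cyp26b1 had 3 matches to GGGCGG and 1 to TATAAA, and none to the half-site forms. Dhrs9 had 1 match to AGGTCA on the other strand, 88 bases before the start site, 1 to GGGCGG and 2 overlapping matches to TATAAA on the 2 strands. AGGTCA was found in 16.3% of all promoters of the table. Direct repeats of the half-sites spaced by 1, 2 or 5 bases were found in 0.222%, 0.268% and 0.0974% of all promoters and in no promoter of the 7 members that the table holds. Aldh1a3 and Crabp2 are not among the 7.

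The aldehyde dehydrogenase genes, whose products form retinoic acid, stayed below the minimum mean of 1. Aldh1a1 was at 0.0703 scaled FPKM in S (about 5 fragments), 0.380 in B (29) and 1.92 in N (177). N was highest, and the intervals of the 3 libraries did not overlap. The level in S was 0.0367 of that in N (0.0123 to 0.0909) and in B 0.198 of that in N (0.130 to 0.297). Its log2 ratios of -1.45 for S over N and -1.08 for B over N exceed 1 in size, but it is not counted because of its mean of 0.79. Aldh1a3 was at 0.110 in S, 0.0674 in B and 0.294 in N, from 11, 7 and 40 fragments. N lay above both, while the intervals of S and B overlapped. Aldh1a2 rested on 4 fragments in S, 5 in B and 2 in N, so no difference was detectable at this depth.

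Aldh1a7, a close copy of Aldh1a1 that lies 91.0 kb from it on chromosome 19, was at 0.524 in S, 2.07 in B and 3.00 in N. It showed the order of Aldh1a1 at a higher level, with log2 ratios of -1.01 for S over B and -1.39 for S over N. Reads of such near-identical genes can be split in either way by the counting, so both levels are uncertain. Aldh1a1 (chromosome 19, 20601961 to 20643462) was the only member whose deposited position differed from GENCODE M21.

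Forming and clearing enzymes were set against each other within each library, a comparison chosen after the values were seen and one that no scaling can move. The level of Cyp26b1 was 33.0 times the summed level of Aldh1a1, Aldh1a2 and Aldh1a3 in S (95% counting interval 21.1 to 53.9). It was 10.8 times that sum in B (7.97 to 15.3) and 0.399 times in N (0.324 to 0.494). The ratio thus lay above 1 in both bulge libraries and below 1 in N. Aldh1a7 was left out of the sum, though its reads may be split with those of Aldh1a1. Its level was 0.524 in S, 2.07 in B and 3.00 in N, above the sum of 0.244, 0.518 and 2.23. The ratios and intervals therefore hold for the 3 summed genes only. These are ratios of transcripts per length, and enzyme activity was not measured.

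The binding protein genes differed little or were rare. Crabp2, which carries retinoic acid to its nuclear receptors, was at 2.79 scaled FPKM in S (2.19 to 3.49), 4.55 in B (3.82 to 5.39) and 3.76 in N (3.16 to 4.45). S was lowest, though above N by a log2 ratio of 0.04 on the same total without mitochondrial genes and ribosomal RNA, and the interval of N overlapped those of S and B. The log2 ratio was -0.55 for S over B, -0.33 for S over N and 0.22 for B over N, none of them called. The fold of Crabp2 was 0.614 (0.456 to 0.818) for S over B and 0.741 (0.551 to 0.988) for S over N. For B over N it was 1.21 (0.947 to 1.54). These intervals cover counting error and not the choice of scaling. Crabp1, known from dermal papilla cells, was at 0.210 in S, 0.802 in B and 0.0383 in N, from 5, 21 and 1 fragments. B was highest, with a fold over N of 20.9 whose interval runs from 4.12 to 1058. In each library Crabp2 was above Crabp1. Of the 11 markers of fibroblasts and dermal papilla, 2 (Col1a2 and Col6a1) reached the minimum mean. Their sum was 28.6 in S, 16.3 in B and 1.02 in N, and 25.9, 13.9 and 0.242 of it was Col6a1. The defining markers Sox2 and Corin were at most 0.0158 and 0.118, both in B, where Crabp1 was also highest. These 2 levels rest on 1 fragment for Sox2 and 18 for Corin. Corin was at 0.00740 in S, and the other values of both were listed at 0. Not all markers below the minimum mean peaked in B. Pdgfra was at 0.442 in S, 0.0773 in B and 0.00623 in N, and Dcn at 0.386, 0.123 and 0.440. Of the melanocyte markers, 7 of 8 stayed at or below 0.513 and Mitf alone was higher (34.4 in S, 16.4 in B and 2.08 in N). The part of these cells in the Crabp1 level was not tested.

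Besides Dhrs9, which passed the minimum through S alone and whose calls are not counted, 4 of the 9 genes had a mean of at least 1. Of these 4, 0 were called higher in S than in B, where 3.89% of all genes were, and 2 were called lower (Adh1 and Adh7), where 5.93% of all genes were. Against N, S had 1 higher (Cyp26b1), with 9.56% of all genes higher, and 2 lower (Adh1 and Adh7), with 10.9% lower. B had 1 higher than N (Cyp26b1), with 7.27% of all genes higher, and 0 lower, with 7.1% lower. The N library is shared by both comparisons with it. The direction of all genes moves with the scaling. S over N had 1107 genes higher and 1260 lower, against 1997 and 793 on the same total without mitochondrial genes and ribosomal RNA and 856 and 1675 as deposited. B over N had 841 higher and 822 lower, against 2043 and 334 on that total, 1142 and 596 by the upper quartile and 717 and 1097 as deposited. S over B had 450 higher and 686 lower, against 372 and 888 on that total and 273 and 1080 by the upper quartile. The called ratios of Adh1, Adh7 and Cyp26b1 kept their signs under all of these scalings.

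**Figure D3:**
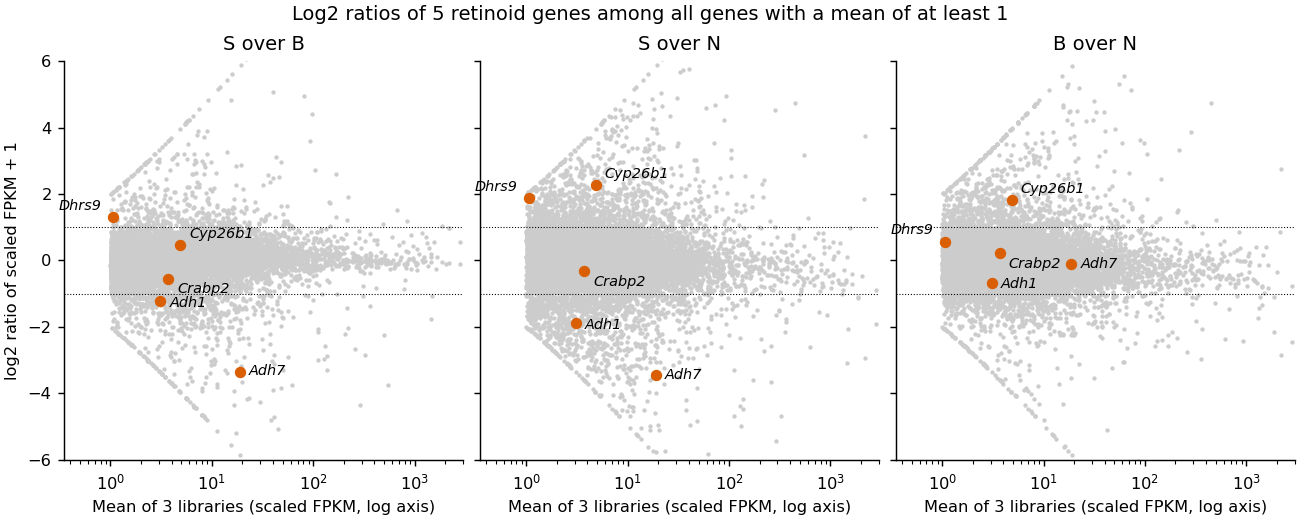
Log2 ratio of scaled FPKM + 1 against the mean of the 3 libraries (log axis) for S over B, S over N and B over N; grey points are all 11575 genes with a mean of at least 1, orange points the 5 retinoid genes among them, dotted lines a ratio of 1 in size, and 31, 36 and 34 genes lie outside the axes. Adh7 lies far below the bulk of genes of its level in both comparisons of S, and Cyp26b1 above it in both comparisons with N.

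The rest of the pathway was described through lists of 64 other genes, of which 63 had a row and 36 a mean of at least 1. Of these 36, 1 was called higher and 2 lower in S than in B, where 3.89% and 5.93% of all genes were. In S over N 2 were higher and 8 lower, against 9.56% and 10.9% of all genes. In B over N 0 were higher and 2 lower, against 7.27% and 7.1%. Scarb1 is 1 of the lower genes in both comparisons with N. It passed the minimum through N alone (0.424 in S, 0.400 in B and 2.65 in N), and such a gene has to differ between the libraries. The median log2 ratio of all genes was 0.06 for S over B, 0.02 for S over N and -0.04 for B over N.

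Among other retinol and retinaldehyde dehydrogenases and reductases, 13 of 20 were measured, with a median of -0.42 for S over N and -0.38 for B over N. Called lower in S than in N were 3 (Sdr16c6, Aldh1a7 and Akr1b3) and higher 0. Sdr16c6, an epidermal retinol dehydrogenase, was at 2.09 in S, 3.65 in B and 9.31 in N, and B was called lower than N as well. The aldose reductase gene Akr1b3 was at 4.32, 6.68 and 11.3. Rdh12 and Rdh13 were at 6.42 and 2.39 in S, 7.65 and 2.35 in B and 13.0 and 4.52 in N, short of the call. Rdh10, the main retinol dehydrogenase of the embryo, was even, at 1.96 in S, 2.01 in B and 2.34 in N. Dhrs3, which turns retinaldehyde back into retinol, was at 12.1, 11.9 and 8.38.

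Of the carriers and uptake genes, 2 of 10 were measured and both were called lower in S than in N. Scarb1, with a mean of 1.16, passed the minimum through N alone, so its call is not read as a result. Rbp2, a cellular retinol-binding protein gene known from the intestine, was at 0.397 in S, 1.64 in B and 2.71 in N, and the lipoprotein receptor gene Scarb1 at 0.424, 0.400 and 2.65. Stra6, the receptor for retinol-binding protein, was at most 0.119. Of the genes of retinyl ester storage and release, 2 were measured. The lipase gene Pnpla2 was called higher in S than in both others, at 9.03 in S, 3.92 in B and 3.34 in N, and Dgat1, an esterifying enzyme, was at 7.59, 4.11 and 8.66. The log2 ratio of Pnpla2 was 1.03 for S over B, just past the call, and 1.21 for S over N. Whether calls of the pathway lists hold under other scalings was not tested. Lrat, the main enzyme of retinol esterification, was below the minimum, at 0.658 in S and 0.799 in B and listed at 0 in N.

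Fabp5, a fatty acid-binding protein that can carry retinoic acid, went with Adh1 in order, at 6.99 in S, 13.5 in B and 22.7 in N (log2 ratio of S over N -1.57). The table of gene names also holds the similar gene Fabp5l2, so reads may be split between copies. Of 5 measured receptor genes 0 were called in any comparison. Rarg, the main retinoic acid receptor of epidermis, was at 15.7 in S, 16.9 in B and 15.4 in N, and its partner Rxra at 23.1, 19.0 and 18.9. Rara was at 2.11, 2.62 and 1.85, and Rxrb at 2.87, 1.38 and 3.02. The coactivator genes Ep300 and Ncoa1 were at 22.1 and 3.65 in S and 15.1 and 2.87 in B, and their log2 ratios of S over N were 0.43 and 0.49.

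Known targets of retinoic acid moved in no common direction. Of 6 measured of 13, 1 was called higher in S than in N, Cyp26b1, itself a member, and 1 lower, Rarres1. Rarres1, a membrane protein gene induced by retinoids, was at 0.316 in S, 3.43 in B and 5.12 in N, with a log2 ratio of -2.22 for S over N and -1.75 for S over B. Nrip1 was at 6.87 in S, 4.86 in B and 7.47 in N. The median of the list was 0.05 for S over B, -0.05 for S over N and 0.07 for B over N.

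**Figure D4:**
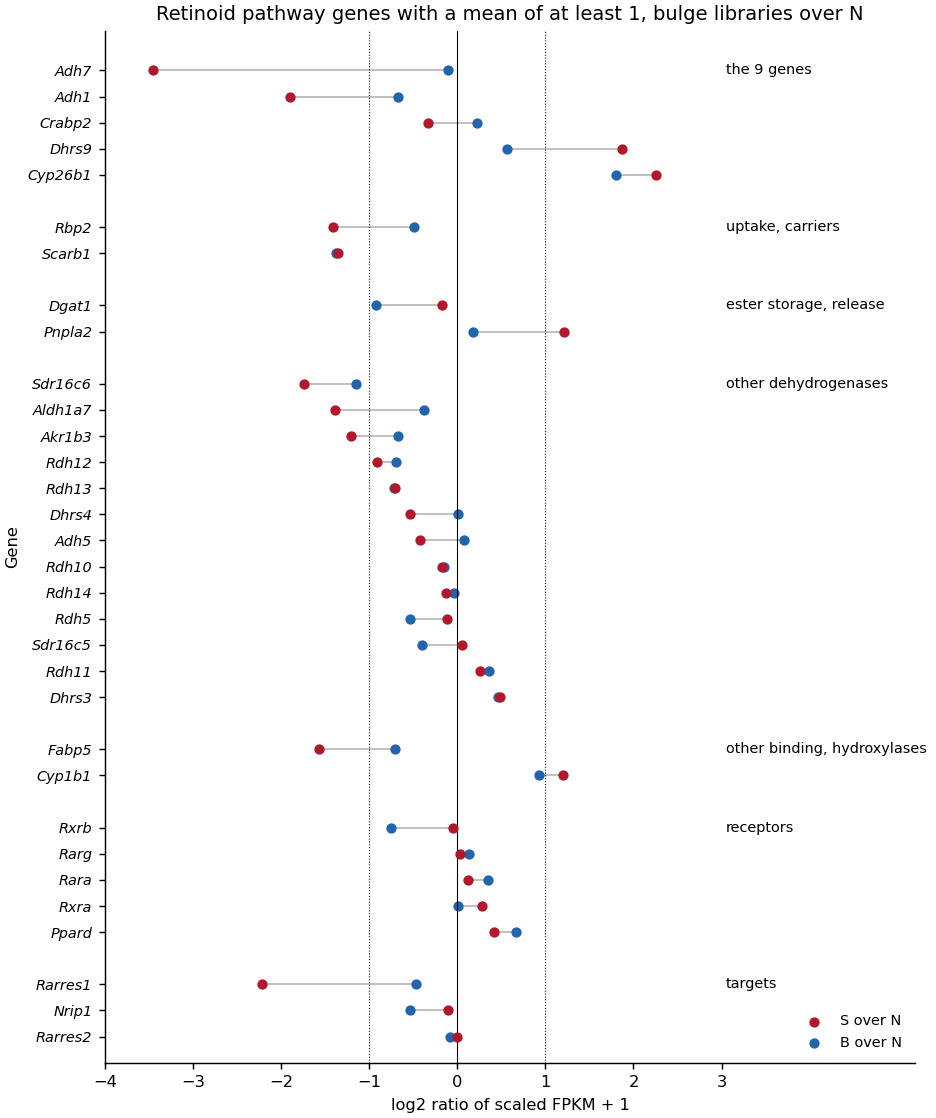
Log2 ratio of scaled FPKM + 1 of S over N (red) and B over N (blue) for the retinoid pathway genes with a mean of at least 1, receptor coregulators left out, grouped by role, with each gene drawn once and dotted lines at a ratio of 1 in size. Receptor genes lie between the dotted lines, while Adh7, Rarres1 and Adh1 extend furthest to the lower side in S and Cyp26b1 furthest to the higher side.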

How the data were processed

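Epidermis was freed with thermolysin (0.25 mg/ml for 1 hour), sorted, and RNA was amplified from poly(T) and random primers before paired-end sequencing of 75 bp, per the labels' protocols. The authors deposited FPKM values per Ensembl gene, per the file headers for N and S; for B the header names the population, and the unit was read from the steps between its low values. The submitters' processing notes name TopHat2 2.0.12, Cufflinks 2.1.1, DESeq2 and mm10 without their roles. The annotation is not given in the sources used here.

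Symbols were found for 49195 of 49452 rows, and rows of 1 symbol were summed. Scaling factors (0.923 for S, 0.981 for B and 1.10 for N) were medians of ratios to the gene means over 18559 genes above 0 in every library. Between 95.7% and 97.9% of values below 10 fragments, in single-exon genes of at least 3000 bp, lay within 0.1 of a whole fragment. Transcript lengths came from GENCODE M21 and promoters from RefSeq. The ratio rule was tested on simulated data with counting error only and with changes planted only in genes with a level of at least 5. That test does not cover variation between mice or sorts, or changes in genes at lower levels. Alternatives were other scalings, pseudocounts of 0.1 and 5, means of at least 0 and 5, and, added after seeing the data, scaling and filter from the 2 compared libraries only. The members, lists and tests were chosen with earlier results of these data known. Named are all 9 members, Cd34 and Itga6, up to 4 genes per pathway list (largest ratio in size, mean of 2 or more) and each marker list's most abundant gene; other genes were named after their values were seen. Some genes of the lists are counted but not reported here. Python 3.11.15, NumPy 2.4.6 and pandas 2.3.3 were used.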

Additional observations from a re-analysis of the deposited data

How the results depend on the processing

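The counts here include Dhrs9. Each called ratio of a member kept its sign wherever an alternative gave it a value, which was in 9 alternatives for Adh7, 8 for Adh1 and Cyp26b1 and 6 for Dhrs9. A change of pseudocount or mean filter cannot turn a sign. Only the alternatives with another scaling could therefore have turned one. With a pseudocount of 5, S over B kept 0 members higher and 1 lower (190 and 277 of all genes), S over N 1 higher and 1 lower (447 and 556), and B over N 0 higher (308 and 349 of all genes). With a mean of at least 5, which leaves Adh7 alone, the counts were 0 and 1 for S over B (239 and 341 of all genes), 0 and 1 for S over N (546 and 611) and 0 higher for B over N (373 and 419). With values as deposited and with the upper quartile, Dhrs9 fell below the minimum mean, which left 0 members higher in S over B and 1 in S over N. By the upper quartile 273 of all genes were higher and 1080 lower in S over B. On the same total without mitochondrial genes and ribosomal RNA, 1997 and 793 of all genes were called in S over N and 2043 and 334 in B over N. That scaling moved the median log2 ratio of all genes to 0.42 for S over N and 0.50 for B over N. With a pseudocount of 0.1, B over N had 2 members higher, Dhrs9 being added, and S over B had 1074 of all genes lower. Without a mean filter, and with the 2 compared libraries only, Aldh1a1 was added, with 1 member lower in B over N and 3 in S over N. Using each member's own Ensembl ID changed no value, since each has 1 row. For the uncalled ratios, Adh7 in B over N ranged from -0.27 to 0.54 and Crabp2 in S over N from -0.53 to 0.04. No paired analysis was possible because each group is 1 library. No library can be left out for the same reason. Depth limits Aldh1a2, Crabp1 and the N level of Dhrs9, which rest on few fragments.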
